A study of Mus musculus with 13 samples.

Results

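The neuronal pentraxins Nptx1, Nptx2 and Nptxr were followed in sorted cells of mouse medulloblastoma, a tumour of the cerebellum. The 3 genes were taken by symbol from a table of 53653 genes, and all 3 passed the filter on low counts, as did 22265 genes in total. The family was chosen by the measured rise of Nptx1 in primary tumours with Kmt2d knocked out, so the values that compare those tumours with their controls are given for all 3 genes as a description, with no test. The 13 RNA-seq libraries came from sorted GFP-positive cells, all carrying SmoM2, a constitutively active Smoothened that keeps the Sonic Hedgehog pathway switched on. KO metastasis (n = 4, replicates 3, 4, 6 and 7) held spinal cord metastases with SmoM2 and the Kmt2d knockout, and KO primary (n = 4, replicates 3, 4, 6 and 7) held cerebellar tumours of the same genotype, both from SmoM2-Kmt2dCf/Cf mice of 5 to 8 weeks. Control primary (n = 5, replicates 3 to 7) held cerebellar tumours of SmoM2 mice with no Kmt2d knockout, of 6 to 16 weeks. No control metastasis was analysed here, so site was compared within the knockout alone. Age was matched only in part between the genotypes. What drives SmoM2, GFP and the knockout is not given in the sources used, and no label ties a library to a mouse, so each p-value measures only the spread between these libraries, which may be technical.

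Neuronal pentraxins are synaptic relatives of the C-reactive protein family. NPTX1 and NPTX2 (also called NP1 and Narp) are secreted, whereas NPTXR is anchored in the membrane. The 3 proteins assemble with each other and bind the extracellular part of AMPA-type glutamate receptors, which they help to cluster at excitatory synapses. NPTX2 is the product of an immediate early gene of neuronal activity, and the sheddase ADAM17 can cut NPTXR from the membrane after metabotropic glutamate receptors are activated. In cultured rat cerebellar granule neurons, whose precursors give rise to this class of medulloblastoma, NPTX1 takes part in cell death after activity is withdrawn.

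Each gene is protein coding and lies on its own chromosome in GRCm38. Nptx1 spans bases 119538719 to 119547753 of chromosome 11 on the minus strand, with 5 exon blocks. Nptx2 spans bases 144545902 to 144557478 of chromosome 5 on the plus strand, also with 5 exon blocks. Nptxr spans bases 79786351 to 79804766 of chromosome 15 on the minus strand, with 6 exon blocks. Npcd, a readthrough of Cbx6 and Nptxr on the same strand, shares 890 exon bases with Nptxr, 17.2% of the Nptxr exons. Npcd is listed at 0 in all 13 libraries, and the level of Nptxr is uncertain to the extent that reads in the shared bases were not counted for it. On the other strand, Gm11762 starts 876 bases from the Nptx1 start and was not analysed here.

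Total counts were 27.1 to 40.8 M in KO metastasis, 35.2 to 41.4 M in KO primary and 23.5 to 37.5 M in control primary. All 10 granule cell precursor markers were detected in every library, with sums of 3483 to 4725 CPM in KO metastasis, 3499 to 4352 CPM in KO primary and 2424 to 3191 CPM in control primary (CPM, counts scaled to the library's TMM-adjusted total). Kmt2d had 115 ± 11.2, 116 ± 35.7 and 125 ± 36.7 CPM in the same order of groups (SD), and whole-gene counts do not check the genotype. Genes of olfactory and vomeronasal receptors, not used by cerebellar cells, drew 349 to 1752 CPM of the unscaled totals in KO metastasis 6 and 7, KO primary 7 and control primary 3, called high-background libraries below. They drew 83.5 CPM in KO primary 6 and 6.08 to 19.5 CPM in the other 8 libraries. In control primary 5, 6 and 7 Xist reached 330 to 483 CPM, with at most 0.913 CPM elsewhere, so 3 of the 5 controls were female by expression and all 8 KO libraries male.

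Nptx1, a secreted pentraxin, was higher in KO primary than in every control tumour, and its median in the metastases stood between the medians of the primary groups. The KO metastases held 127, 181, 149 and 97.9 CPM in replicates 3, 4, 6 and 7. The KO primary tumours held 770, 180, 178 and 151 CPM in replicates 3, 4, 6 and 7. The control primary tumours held 15.8, 24.3, 107, 29.8 and 19.1 CPM in replicates 3 to 7. All 4 KO primary libraries lay above all 5 controls, and 1 library in each of these groups, KO primary 3 and control primary 5, stood far above its own group. The metastases lay close together, and only KO metastasis 7 lay below the highest control. The counts behind these values ran from 416 to 29572 per library, so counting error was small beside the spread between libraries.

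**Figure D1:**
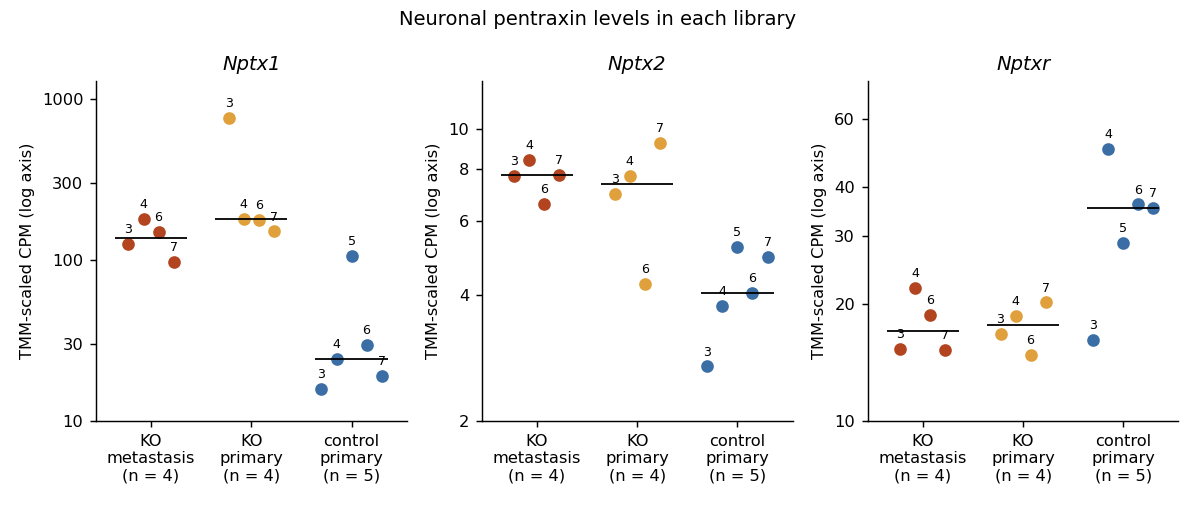
Level of each neuronal pentraxin gene in TMM-scaled CPM (log axis, a different range in each panel) in every library of KO metastasis, KO primary and control primary. Points carry replicate numbers and horizontal lines are group medians; KO primary 3 (770 CPM) and control primary 5 (107 CPM) stand above their groups for Nptx1, and control primary 3 is the lowest control in all 3 panels.

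Nptx1 averaged 139 ± 35.0 CPM in KO metastasis, 320 ± 301 CPM in KO primary and 39.1 ± 38.2 CPM in control primary (SD, n = 4, 4 and 5). The group medians were 138 CPM in KO metastasis, 179 CPM in KO primary and 24.3 CPM in control primary. For KO primary against control primary the fitted log2 change was 3.03 (SE 0.62), an 8.18-fold higher level, and 20 of 20 pairs of libraries were higher in KO primary. Of the 22265 genes, 3.57% were higher in KO primary with no overlap between these groups, and since this contrast chose the gene, nothing is read from the comparison with that share. Without KO primary 3 the mean of that group was 170 ± 16.2 CPM (n = 3), and without control primary 5 the control mean was 22.2 ± 6.12 CPM (n = 4). With both libraries left out the log2 change was 2.90 (SE 0.27). Leaving out 1 library at a time gave 2.11 without KO primary 3 and 3.84 without control primary 5. Without the 3 controls with Xist counts, control primary 5 among them, it was 4.04 (SE 0.76).

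The metastasis comparisons of Nptx1 share the libraries that chose the gene and are also given without a test. Against KO primary, the metastases had a log2 change of -1.21 (SE 0.63), and 3 of 16 pairs were higher in KO metastasis. Without KO primary 3 alone this change was -0.26 (SE 0.53), and without KO primary 3 and control primary 5 it was also -0.26 (SE 0.26). Against control primary, the metastases had a log2 change of 1.83 (SE 0.60), with 19 of 20 pairs higher in KO metastasis, and without both libraries it was 2.65 (SE 0.26). Controls 5, 6 and 7, which had Xist counts, held between 19.1 and 107 CPM of Nptx1, and control primary 3 and 4, the 2 male controls, held 15.8 and 24.3 CPM. The 2 male controls lay below all 8 male KO libraries. These 8 include the KO primary libraries, whose contrast chose the gene. How many other genes separate these libraries as well was not computed. Control primary 3 was a high-background library, and the part of sex in these levels was not tested.

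Nptx2, the secreted pentraxin known as an early gene of neuronal activity, was a low-count gene with smaller differences. Its levels were 7.72, 8.43, 6.60 and 7.74 CPM in KO metastasis replicates 3, 4, 6 and 7. They were 6.98, 7.73, 4.26 and 9.26 CPM in KO primary replicates 3, 4, 6 and 7. They were 2.70, 3.76, 5.21, 4.06 and 4.93 CPM in control primary replicates 3 to 7. Every metastasis lay above every control, whereas KO primary 6 lay inside the control range. Counts per library were 71 to 342, which at the lowest gives a counting error of 11.9%.

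Nptx2 averaged 7.62 ± 0.758 CPM in KO metastasis, 7.06 ± 2.09 CPM in KO primary and 4.13 ± 0.997 CPM in control primary (SD). KO metastasis against control primary gave a log2 change of 0.88 (SE 0.26), higher in 20 of 20 pairs, with an unadjusted p of 0.00390 and an adjusted p of 0.0871 by edgeR's quasi-likelihood test, which misses the 0.05 threshold. In that comparison 3.08% of genes were called (1.06% higher and 2.02% lower), and neither Nptx2 nor Nptxr was among them. Groups that do not overlap, as for Nptx2, occurred with a higher level in KO metastasis in 2.81% of all genes. DESeq2 called Nptx2 at an adjusted p of 0.0123, with 6.88% of genes called, and limma voom at 0.0380, with 17.2% called. Over all alternatives the adjusted p ran from 0.0123 to 0.259, the highest without the 3 controls with Xist counts, where the log2 change was 1.30. KO primary against control primary, which shares the control libraries, gave a log2 change of 0.77 (SE 0.25), with 18 of 20 pairs higher in KO primary.

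Nptxr, the membrane-anchored member through which the secreted pentraxins can be held at the cell surface, was lower in both KO groups than in most controls. Its levels were 15.3, 22.0, 18.7 and 15.2 CPM in KO metastasis replicates 3, 4, 6 and 7. They were 16.7, 18.7, 14.8 and 20.2 CPM in KO primary replicates 3, 4, 6 and 7. They were 16.1, 50.3, 28.7, 36.1 and 35.3 CPM in control primary replicates 3 to 7. Control primary 3, the library with a receptor background of 1752 CPM, was the only control inside the KO range, and the other 4 controls lay above all 8 KO libraries. It was also the lowest control for Nptx1 and Nptx2, and the part of its background in these levels was not tested.

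Nptxr averaged 17.8 ± 3.23 CPM in KO metastasis, 17.6 ± 2.34 CPM in KO primary and 33.3 ± 12.4 CPM in control primary (SD). KO metastasis against control primary gave a log2 change of -0.90 (SE 0.26), lower in KO metastasis in 18 of 20 pairs, with an unadjusted p of 0.00376 and an adjusted p of 0.0857 by edgeR, so it was not called. Without control primary 3 the change was -1.07, with an edgeR adjusted p of 0.00610, while 6% of genes were called in that fit. Without all 4 high-background libraries it was -0.999 (edgeR adjusted p = 0.0504). Without control primary 4 it was -0.69 (edgeR adjusted p = 0.256), and neither of these fits called Nptxr. DESeq2 gave an adjusted p of 0.0149 and limma voom 0.00274, and over all alternatives the adjusted p ran from 0.00274 to 0.653, the highest without the 3 controls with Xist counts, where the log2 change was -0.88. KO primary against control primary gave a log2 change of -0.92 (SE 0.26), with 3 of 20 pairs higher in KO primary. Cbx6, which shares the Npcd readthrough with Nptxr, had 84.2, 91.8 and 124 CPM in KO metastasis, KO primary and control primary, and edgeR did not call it (against control primary, adjusted p = 0.0627 in KO metastasis and 0.164 in KO primary).

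Between the 2 sites of the knockout, Nptx2 and Nptxr differed by less than 1 standard error. KO metastasis against KO primary gave a log2 change of 0.11 (SE 0.27) for Nptx2 and 0.02 (SE 0.27) for Nptxr, with 9 of 16 pairs higher in KO metastasis for each. By edgeR 0.00449% of genes were called in this comparison, a single gene, the myelin gene Mbp. Neither Nptx2 (unadjusted p = 0.684) nor Nptxr (unadjusted p = 0.949) was called by edgeR, with an adjusted p of 0.99974 for both. With 4 libraries a group, differences well above these errors can also go uncalled. In the same fit, KO metastasis against control primary was not called at 0.88 (SE 0.26) for Nptx2 and -0.90 (SE 0.26) for Nptxr. DESeq2 called 0.148% of genes here and voom 0.00898%.

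**Figure D2:**
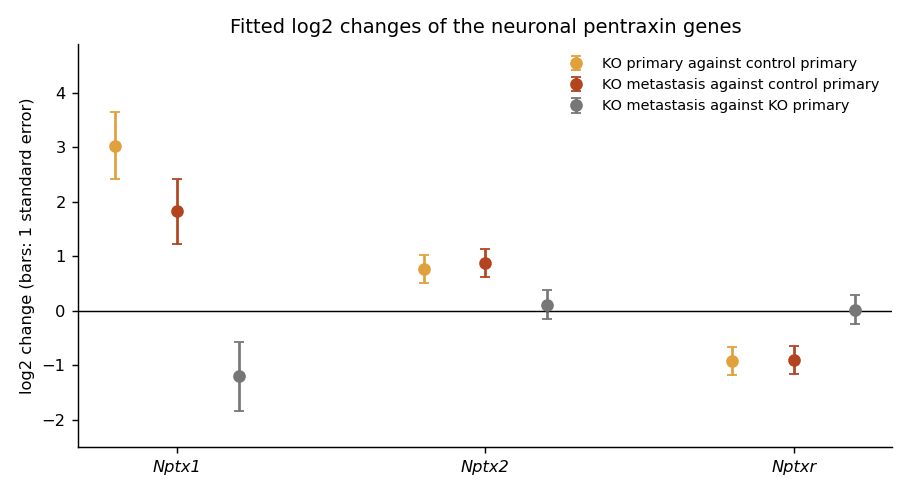
Fitted log2 changes of Nptx1, Nptx2 and Nptxr on the vertical axis in the 3 comparisons of the groups, with bars of 1 standard error. Nptx1 and Nptx2 are positive and Nptxr is negative in both KO groups against control primary, and the metastases differ from KO primary by -1.21 for Nptx1, 0.11 for Nptx2 and 0.02 for Nptxr.

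Within a library, the 2 secreted pentraxins gained on the receptor in the KO groups. The Nptx1 to Nptxr count ratio was 8.29, 8.22, 7.98 and 6.43 in KO metastasis replicates 3, 4, 6 and 7. It was 46.0, 9.67, 12.01 and 7.48 in KO primary replicates 3, 4, 6 and 7. It was 0.981, 0.483, 3.73, 0.825 and 0.539 in control primary replicates 3 to 7. Nptxr counts thus exceeded Nptx1 counts in 4 of 5 controls and in none of the 8 KO libraries. The Nptx2 to Nptxr count ratio was 0.353 to 0.509 in KO metastasis, 0.288 to 0.459 in KO primary and 0.0748 to 0.182 in control primary, again with no overlap between either KO group and the controls. These ratios need no scaling between libraries, and they follow from the levels above, so no test is given. Nptx1 was chosen for its rise in KO primary, so the separation of its ratio there is no separate result. Its ratio in KO metastasis was set against the same controls. How many other pairs of genes separate as well was not computed.

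**Figure D3:**
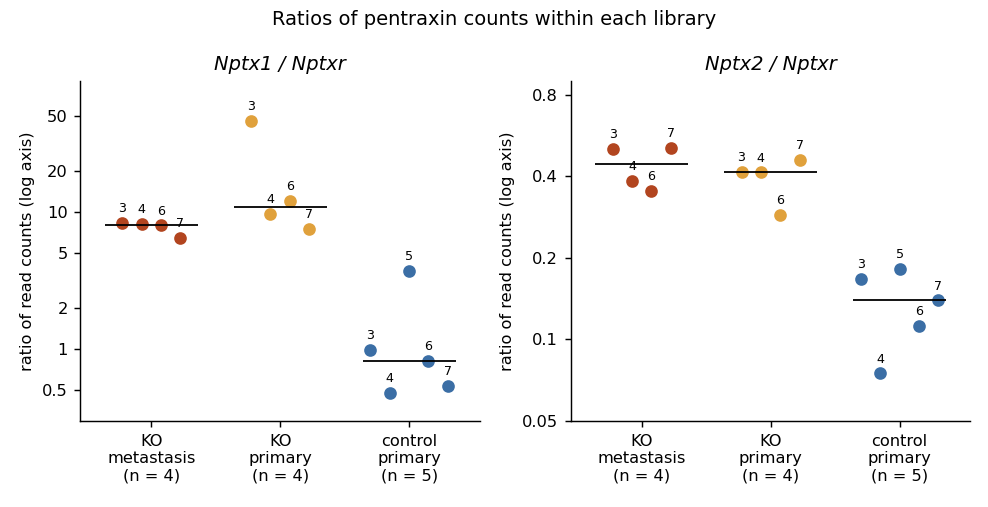
Ratio of read counts of Nptx1 to Nptxr (left) and of Nptx2 to Nptxr (right) in each library on log axes, with replicate numbers and group medians as lines. All 8 KO libraries lie above all 5 controls in both panels, from 6.43 up against at most 3.73 for Nptx1 and from 0.288 up against at most 0.182 for Nptx2.

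Per kilobase of exon, the mean levels ran in the order Nptx1, Nptxr and Nptx2 in every group, and the gaps between the genes differed. In control primary the mean of Nptx1 was raised by control primary 5. The control medians before division by length ran the other way, 24.3 CPM for Nptx1 and 35.3 CPM for Nptxr. Nptx1 stood at 26.6 ± 6.71, 61.3 ± 57.6 and 7.503 ± 7.32 CPM per kb in KO metastasis, KO primary and control primary, Nptxr at 3.44 ± 0.625, 3.40 ± 0.453 and 6.44 ± 2.401, and Nptx2 at 3.01 ± 0.299, 2.78 ± 0.826 and 1.63 ± 0.393 (SD). In both KO groups Nptx1 was above the other two in every library, and the ranges of Nptx2 and Nptxr overlapped. In control primary tumours the ranges of Nptx1 (3.03 to 20.5) and Nptxr (3.12 to 9.72) overlapped and Nptx2 (1.07 to 2.05) lay below both. Exon lengths were unions of all annotated exons, 5217 bases for Nptx1, 2536 for Nptx2 and 5170 for Nptxr. The Nptxr length includes the 890 bases shared with Npcd. If reads in those bases were not counted, the Nptxr values per kilobase are too low. The order of the control means of Nptx1 and Nptxr is therefore uncertain. So is the overlap of Nptx2 and Nptxr in KO metastasis.

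Across the 13 libraries, the log2 levels of Nptx1 and Nptx2 had a Pearson r of 0.71, Nptx1 and Nptxr of -0.57, and Nptx2 and Nptxr of -0.37. After the group means were taken out these were 0.30, 0.10 and 0.50, so neither negative value was negative within groups. The points share libraries and groups, and the coefficients are descriptions.

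Among 10376 genes with a mean of at least 5 CPM, the 4 whose log2 levels were most like those of Nptx1 over the 13 libraries were Mta3 (r = 0.97), Lrig3 (0.93), Adamts14 (0.93) and Fgf5 (0.93). Mta3 encodes a subunit of the NuRD chromatin complex, Lrig3 a leucine-rich repeat membrane protein, Adamts14 a procollagen peptidase and Fgf5 a growth factor. With KO primary 3 and control primary 5 left out, r was 0.96, 0.90, 0.90 and 0.94. Within groups it was 0.89, 0.91, 0.88 and 0.73. Mta3 moved much less in size than Nptx1, with 46.2 ± 1.67, 50.01 ± 6.85 and 35.4 ± 4.04 CPM in KO metastasis, KO primary and control primary. Fgf5 moved more, with 42.2 ± 14.7, 81.3 ± 55.8 and 7.76 ± 3.85 CPM in the same groups (SD).

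**Figure D4:**
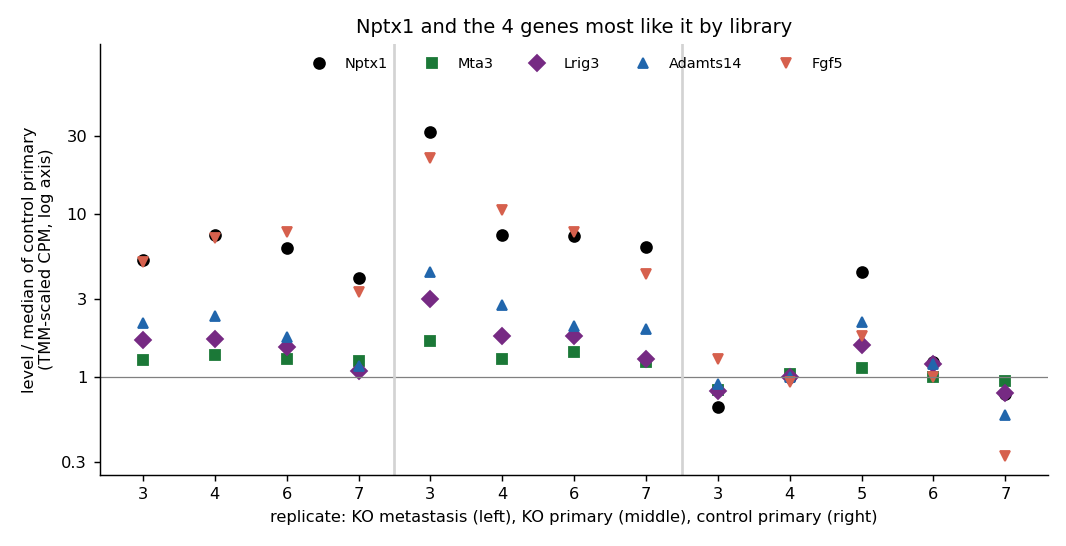
Level of Nptx1 and of the 4 genes most like it in each library, divided by that gene's median in control primary (log axis), with KO metastasis on the left, KO primary in the middle and control primary on the right. KO primary 3 is the highest library for all 5 genes, and control primary 5 is the highest control for each of them. The 4 genes were picked for likeness to Nptx1 over these libraries, so this is no separate result.

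The genes most like Nptx2 were Sec11c (r = 0.93), a signal peptidase subunit, Col18a1 (0.92), a basement membrane collagen, Cdyl2 (0.91), a chromodomain protein, and Slc2a1 (0.89), a glucose transporter. Col18a1 had 232 ± 122, 172 ± 52.2 and 47.0 ± 31.2 CPM in KO metastasis, KO primary and control primary (SD). The genes most like Nptxr were Tmx4 (r = 0.96), a thioredoxin-related membrane protein, and Tbc1d24 (0.95), Sv2b (0.95) and Ptprs (0.95), each with a known role at synapses. Sv2b, a synaptic vesicle protein, had 89.4 ± 16.9, 85.8 ± 13.1 and 159 ± 56.8 CPM in the same groups (SD). These genes were picked for their likeness over the same 13 libraries, so group levels that resemble those of the member are no separate result.

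Of the AMPA receptor subunits that the pentraxins bind, Gria4 fell in both KO groups. Gria4 had 58.0, 57.7, 59.6 and 57.3 CPM in KO metastasis replicates 3, 4, 6 and 7, 87.9, 59.1, 55.4 and 67.4 CPM in KO primary replicates 3, 4, 6 and 7, and 75.5, 135, 151, 161 and 135 CPM in control primary replicates 3 to 7. All 4 metastases lay below every control, as in 4.01% of all genes, and KO primary 3 lay above control primary 3. The log2 change was -1.18 (SE 0.20) for KO metastasis and -0.96 (SE 0.20) for KO primary, each against control primary, with edgeR adjusted p of 0.00569 and 0.0186. Without the 3 controls with Xist counts these became 0.431 and 0.681, and in KO primary the call was also lost in 5 of 9 fits that left out 1 library. Gria1, Gria2 and Gria3 were not called by edgeR in any comparison. Gria2 averaged 180 ± 75.2 CPM in KO metastasis, 175 ± 51.7 CPM in KO primary and 319 ± 105 CPM in control primary (SD), with edgeR adjusted p of 0.216 and 0.189 when the KO groups were set against control primary. Per kilobase of exon, Gria2 stood at 11.6, 11.3 and 20.5 and Gria4 at 9.23, 10.7 and 20.9 CPM per kb, in KO metastasis, KO primary and control primary. In each KO group the ranges of both lay below that of Nptx1, and in control primary both ranges overlapped it.

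Over the list of 20 AMPA receptor subunits and auxiliary proteins, 4 genes fell in KO metastasis (Cnih2, Frrs1l, Gria4 and Porcn) and 3 in KO primary (Cnih2, Gria4 and Nsg2), each against control primary, and edgeR did not call the other 16 and 17. DESeq2 called 5 and 6 of the list lower and voom 7 and 9, where DESeq2 called 6.78% and voom 14.7% of all genes in KO primary. The median log2 change was -0.59 and -0.50, against -0.04 and -0.05 over all genes, and 2.02% and 1.78% of all genes were called lower (2.93% in either direction in KO primary, 1.15% higher). Cnih2, a cornichon protein that accompanies AMPA receptors, had 26.1 ± 5.36, 23.1 ± 5.64 and 94.2 ± 14.0 CPM in KO metastasis, KO primary and control primary (SD), and its log2 change was -1.85 in KO metastasis (SE 0.20, edgeR adjusted p = 3.55e-04) and -2.02 in KO primary (SE 0.20, edgeR adjusted p = 2.16e-04). It was called in every fit that left out 1 library and without the controls with Xist counts (0.0120 and 0.00642), where it was the 1 gene of the list called. The count in KO metastasis was 2 without KO metastasis 3. The count in KO primary was 1 without control primary 4, 6 or 7 or KO primary 4 or 6, and 6 without control primary 3 or without the 4 high-background libraries.

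Among 29 measured synapse organisers, proteins that align the 2 sides of a synapse as pentraxins do, 1 rose and 8 fell in KO metastasis and 1 rose and 7 fell in KO primary by edgeR, against control primary. DESeq2 called 1 higher and 9 lower in KO metastasis and 1 higher and 10 lower in KO primary, and voom called 1 higher and 10 lower in KO metastasis and 1 higher and 13 lower in KO primary. The median log2 change was -0.76 and -0.75, against -0.04 and -0.05 over all genes. Of all genes, edgeR called 1.06% higher and 2.02% lower in KO metastasis, and 1.15% higher and 1.78% lower in KO primary. In either direction DESeq2 called 6.88% and 6.78% of all genes, and voom 17.2% and 14.7%. The one that rose was Cbln1, a secreted C1q-family organiser of cerebellar synapses, with 74.8 ± 18.0, 58.9 ± 4.33 and 34.4 ± 4.96 CPM in KO metastasis, KO primary and control primary (SD). Nrxn2 and Nrxn3, which encode presynaptic neurexins, fell in both KO groups, as did Lgi3, Lrrtm2, Olfm2 and C1ql1. Nrxn2 had 8.44 ± 0.296, 8.73 ± 2.12 and 23.1 ± 3.59 CPM in the same groups (SD), with log2 changes of -1.46 and -1.41 and edgeR adjusted p of 0.00108 and 0.00120. Cbln3 also fell in KO metastasis. Without the 3 controls with Xist counts the counts were 2 lower in KO metastasis and 1 lower in KO primary. Cbln1 lost its call there in KO metastasis (edgeR adjusted p = 0.123) and KO primary (0.397), and so did Nrxn2 (0.0706 and 0.0594). In KO metastasis 5 were lower without control primary 4 or KO metastasis 4, and 4 without KO metastasis 3 or 6. In KO primary 4 were lower without control primary 4 or 7 or KO primary 3 or 6, and 3 without KO primary 4. The call of Cbln1 in KO primary was lost without control primary 4, 6 or 7 or KO primary 4 or 6.

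Among 22 activity-regulated genes, the class to which Nptx2 belongs, 8 rose in KO metastasis against control primary (Egr1, Egr2, Egr3, Fos, Fosb, Nr4a1, Nr4a2 and Nrn1), and edgeR did not call the other 14. In KO primary 1 rose by edgeR, Egr3, and without KO primary 3 its edgeR adjusted p was 0.0528. DESeq2 called 11 higher and 1 lower in KO metastasis and 4 higher and 1 lower in KO primary, and voom called 13 higher and 1 lower in KO metastasis and 7 higher and 1 lower in KO primary. Median log2 changes were 0.79 and 0.34, against -0.04 and -0.05 over all genes. The shares of all genes called stand beside these counts and those of the perineuronal net below. By edgeR they were 1.06% higher and 2.02% lower in KO metastasis, and 1.15% higher and 1.78% lower in KO primary. In either direction they were 6.88% and 6.78% by DESeq2, and 17.2% and 14.7% by voom. Fos, an early transcription factor gene, had 314 ± 67.6, 97.5 ± 71.8 and 33.0 ± 23.5 CPM in KO metastasis, KO primary and control primary (SD), and rose by 3.26 on the log2 scale in KO metastasis against control primary (SE 0.57, edgeR adjusted p = 0.00616). Egr1 had 1173 ± 150, 631 ± 324 and 240.2 ± 142 CPM in the same groups. Neuronal activity was not measured, and the part of papain dissociation and sorting in these levels was not tested. Without the 3 controls with Xist counts, 2 rose in KO metastasis and 1 in KO primary. Without KO metastasis 3 the count in KO metastasis was 5, and without control primary 5 or KO primary 7 that in KO primary was 3. Without the 4 high-background libraries the counts were 10 and 4. In 12 genes of the perineuronal net, a matrix that holds NPTX2, Ncan and Vcan fell and Otx2 rose in KO metastasis by edgeR, and Ncan fell in KO primary (Ncan log2 -2.93 and -3.08, edgeR adjusted p = 5.66e-04 and 4.25e-04). Among 9 fits that left out 1 library of the groups compared, Vcan lost its call in 7 and Otx2 in 4, and Ncan kept its call in all 9. DESeq2 called 1 higher and 4 lower in KO metastasis and 4 lower in KO primary, and voom called 2 higher and 3 lower in KO metastasis and 1 higher and 4 lower in KO primary.

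KO metastasis against KO primary called no gene of these 4 lists by edgeR, DESeq2 or voom over the 13 libraries. With the replicate number as a block over the 8 KO libraries, 1 activity-regulated gene was called higher. At an edgeR unadjusted p below 0.05, which 3.23% of all genes passed, there were 2 lower AMPA genes, 1 lower organiser, 8 higher activity-regulated genes, and 1 higher and 1 lower gene of the perineuronal net. Adam17, the sheddase that releases NPTXR, had 56.7 ± 19.8, 70.1 ± 11.2 and 61.0 ± 14.2 CPM in KO metastasis, KO primary and control primary (SD), and like Adam10, a related sheddase, and Grm5, a metabotropic glutamate receptor, it was not called by edgeR in any comparison. At an unadjusted p below 0.05, passed by 14.2% of all genes, Grm5 was lower in KO metastasis than in control primary. Of 6 other pentraxin genes Ptx3, a secreted long pentraxin, alone passed the filter, with 2.77 ± 1.72, 3.03 ± 1.17 and 1.498 ± 0.665 CPM in the same groups, and edgeR did not call it.

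**Figure D5:**
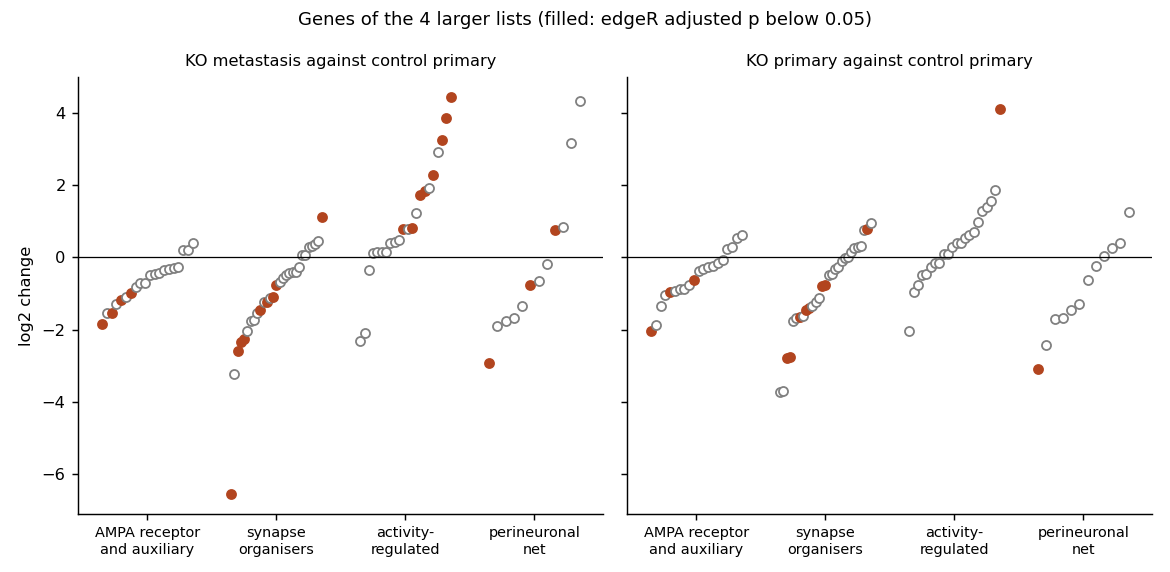
Fitted log2 change of each measured gene in 4 lists around the neuronal pentraxins, for KO metastasis (left) and KO primary (right) against control primary, with genes ordered within a list and filled points past the edgeR threshold. The filled AMPA receptor genes, 4 and 3, are all below 0, and the filled activity-regulated genes, 8 and 1, are all above 0.

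Markers of some other cell types differed in their sums between the groups. The astrocyte markers had mean sums of 353, 291 and 293 CPM in KO metastasis, KO primary and control primary. The endothelium markers had 4.67, 4.64 and 5.92 CPM in the same order. The 13 markers of differentiating neurons summed to 1286 to 1743 CPM in KO metastasis and 1293 to 1508 CPM in KO primary. In control primary they summed to 2240 to 3557 CPM. Against control primary, edgeR called 7 and 6 of them lower in KO metastasis and KO primary, beside 2.02% and 1.78% of all genes. Of the 13, 1 had a positive log2 change in KO metastasis and 2 in KO primary. Gabra6, a marker of mature granule neurons, was at 0 in KO metastasis 3 and 4 and in KO primary 3 and 4, and Cbln3 in KO metastasis 3. In bulk samples fewer cells of a type and less RNA per cell cannot be told apart, and the part of this shift in the levels of Nptxr, the AMPA receptor genes and the synapse organisers was not tested. The 7 oligodendrocyte markers summed to 170 to 1895 CPM in KO metastasis, 66.8 to 97.9 CPM in KO primary and 143 to 399 CPM in control primary, with Opalin at 0 in KO metastasis 3 and in all KO primary libraries. The 8 microglia and macrophage markers summed to 10.5 to 179 CPM, 2.91 to 14.6 CPM and 7.43 to 65.9 CPM in the same order, with none at 0. The 8 markers of GABAergic and Purkinje neurons summed to 25.7 to 117 CPM in KO metastasis, 34.7 to 64.6 CPM in KO primary and 9.56 to 27.6 CPM in control primary, with Slc32a1 at 0 in every library but KO primary 7. Most of that sum was Pvalb, a calcium-binding protein gene, which rose by edgeR in both KO groups and had 63.8 ± 40.6, 43.2 ± 12.7 and 14.4 ± 5.55 CPM in the same groups (SD). Of the 5 markers of this list that were tested, Pvalb alone was higher and 4 were lower in each KO group than in control primary. Their median log2 change was -1.44 in KO metastasis and -1.18 in KO primary. Genes of the mitochondrial genome took 2.06% of the counts of KO metastasis 3 and between 0.633% and 0.876% of those of the other 12 libraries. The part of these markers and of that library's RNA in the pentraxin levels was not tested.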

How the data were processed

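The authors deposited raw read counts per gene symbol, 1 column a library, with no column without a sample. The submitters' processing notes name HTSeq 0.6.1, STAR 2.4 and DESeq2, with mm10 as build and no roles. Per the labels' protocols, GFP-positive cells were sorted after papain dissociation, frozen as pellets (metastases 0.1 to 3 M cells, primaries 1 to 5 M) and sequenced after a TruSeq kit. The sources used here give neither annotation nor strand setting, so overlapping genes on opposite strands cannot be told apart.

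One edgeR 4.0.16 model (R 4.3.3) held all 13 libraries (filterByExpr, minimum count 10 and total 15, TMM, quasi-likelihood F tests, Benjamini-Hochberg over 22265 genes, called below 0.05). SE is the absolute log2 change over the square root of F. DESeq2 1.42.0, limma 3.58.1 voom and left-out libraries were alternatives. The steps were tested on simulated data. Likeness is Pearson's r of log2(CPM + 0.5). Coordinates and exon lengths come from GENCODE on GRCm38. No 2 replicates held identical counts.

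The members and lists were chosen with earlier results of these data known, so lists are described by counts and medians. The text names the members, up to 4 called genes a list and comparison by smallest p, the 4 most like genes a member, Gria1 to Gria4 and Adam17. Other called list genes named, Cbx6 and Npcd, were chosen after their values were seen. Some genes that this rule or the lists take are not reported here.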

Additional observations from a re-analysis of the deposited data

Results flagged for a closer look

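In KO primary, replicate 3 stood apart for Nptx1 at 770 CPM, with the other 3 libraries at 151 to 180 CPM, a gap of 0.952 of the group's range. In control primary, replicate 5 stood apart for Nptx1 at 107 CPM, with the other 4 at 15.8 to 29.8 CPM, a gap of 0.847 of the range. Of 9 groups examined, 3 genes in 3 groups, these 2 had a library standing apart. Chance gives about 1 in 20 if values are normally distributed, which was not tested. The gaps were taken on CPM without logs, and a log scale can change which libraries stand apart. Nptx2 and Nptxr did not stand apart in either library.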

How the results depend on the processing

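The number of genes called moved most with the tool and the libraries. For KO primary against control primary it was 653, and 3267 by voom, 1510 by DESeq2, 1427 without the 4 high-background libraries, 1090 with the receptor level as a covariate and 138 without the 3 controls with Xist counts, with 277 to 1032 when 1 library was left out. For KO metastasis against control primary it was 685, and in the same order 3822, 1532, 1274, 1099 and 100, with 369 to 1199. For KO metastasis against KO primary it was 1, and 2 by voom, 33 by DESeq2, 5 without the high-background libraries, 0 with the covariate, 0 without the controls with Xist counts, 2 with no filter on low counts and 0 with the 2 groups alone, with 0 to 2 when 1 library was left out. The cause was not tested. Calls higher and lower were 235 and 450 by edgeR and 2318 and 1504 by voom for KO metastasis against control primary, and 257 and 396 by edgeR and 1636 and 1631 by voom for KO primary against control primary. The median log2 change of all genes in the metastases against the controls was 0.08 by voom and -0.04 by edgeR, a shift small beside the changes of the 3 members.

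For KO metastasis against control primary, the log2 change of Nptx2 was called by DESeq2 (0.89) and voom (0.80), and that of Nptxr by DESeq2 (-0.89) and voom (-1.13), with -1.07 to -0.69 when 1 library was left out. Nptx1 was at 2.85 without the controls with Xist counts, 1.63 to 2.65 when 1 library was left out, and 2.65 without KO primary 3 and control primary 5, a pair left out after the data were seen. For KO metastasis against KO primary, Nptx1 ran from -1.44 to -0.26 when 1 library was left out and was -0.26 without that pair. Nptx1 for KO primary against control primary kept its sign in 23 of 23 alternatives.

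KO metastasis and KO primary share replicate numbers, but the labels name no shared mouse, and the same-number correlations of 0.0408, 0.213, 0.285 and 0.625 do not all pass 0.1. With the replicate number as a block, 0 genes were called between them over 13 libraries and 10 over the 8 KO libraries, and 672 for KO primary against control primary. Under the block over 13 libraries Nptx2 for KO metastasis against control primary was 0.99 (edgeR adjusted p = 0.0847) and Nptxr -0.89 (0.0969), and Nptx1 was 3.58, -0.98 and 2.60 for KO primary against control primary, KO metastasis against KO primary and KO metastasis against control primary. Counting error was at most 11.9% for Nptx2, the gene with the fewest counts.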

Other observations

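Of 10376 genes with a mean of at least 5 CPM, 127 (1.22%) stood apart as high in KO primary 3 by the criterion used for Nptx1, and 95 (0.916%) in control primary 5. Apart from Nptx1, 2 genes did so in both (0.0193%), Col3a1, a fibrillar collagen gene, and Adamts7, a secreted metalloprotease gene. Whether 2 shared genes are more than chance gives was not tested, so no shared trait of the 2 libraries is read from them. Col3a1 was at 106 CPM in KO primary 3 and 14.6 to 29.6 CPM in the other KO primary libraries, and at 86.4 CPM in control primary 5 and 13.9 to 27.3 CPM in the other controls. Adamts7 was at 17.3 CPM in KO primary 3 and 5.40 to 7.24 CPM in the other KO primary libraries, and at 7.87 CPM in control primary 5 and 2.07 to 3.27 CPM in the other controls. The metastases held 14.2 to 34.2 CPM of Col3a1 and 3.83 to 12.9 CPM of Adamts7. The 6 fibroblast and meningeal markers, of which Col3a1 is 1, summed to 107 CPM in KO primary 3 and 100.3 CPM in control primary 5. In the other 11 libraries they summed to 16.4 to 37.8 CPM. Col3a1 made up 106 of the 107 CPM and 86.4 of the 100.3 CPM, so these sums mostly repeat its level. Dcn and Pdgfrb were at 0 in KO primary 3.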
